A study of Mus musculus with 16 samples.

Results

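The CXC chemokines of the mouse bladder were followed across age and sex on 1-colour arrays. The 8 members were Cxcl1, Cxcl2, Cxcl5, Cxcl9, Cxcl12, Cxcl14, Cxcl16 and Cxcl17, out of 37208 genes and transcripts on the array, and each was found through the RefSeq accession that the scanner files give for its probe. They had 10 probes, since Cxcl9 and Cxcl12 had 2 each. RNA came from the dissected bladder body of C57BL/6 mice, with no transgene and no drug, and each array held 1 bladder. There were 4 mature males (MAT, 12 months old), 4 aged males (AGED, 27 to 30 months old), 4 MAT females and 4 AGED females. No CXC chemokine among the 7 that could be tested passed the test for a difference between AGED and MAT bladders in either sex. Pooled over the 4 groups, the spread of Cxcl1, Cxcl5 and Cxcl9 between mice of the same age and sex was wider than that of over 99% of all genes tested, though that of Cxcl9 was narrow in MAT females and rested in large part on 1 AGED male.

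Chemokines are small secreted proteins that guide leukocytes, and the CXC family takes its name from a pair of cysteines separated by a single residue. Cxcl1, Cxcl2 and Cxcl5 carry the ELR motif, act on the receptor Cxcr2 and attract neutrophils. They are made by epithelium, stroma and myeloid cells within hours of infection or injury, and in the bladder they are known from urinary tract infection. Cxcl9 is induced by interferon gamma and attracts T cells through Cxcr3. Cxcl12 is made by stromal cells at all times and acts on Cxcr4, with Ackr3 as its scavenger. Cxcl14 is abundant in epithelia and stroma, Cxcl16 is a membrane-bound ligand of Cxcr6 that proteases release, and Cxcl17 belongs to mucosal surfaces.

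The signal of each spot is given as the log2 of the processed signal less the 75th percentile of its array, so that 0 is the level of a bright probe and a difference of 1 is 2-fold. Signals of different probes are not comparable with each other. Probes that the scanner software marked well above background on 4 or more of the 16 arrays were kept. Of the 10 probes 9 were kept, and they covered 7 members. Cxcl2 was not tested. The tests came from a single limma fit to the 16 arrays, in which the 4 groups share 1 estimate of the spread of each gene. P-values were adjusted by Benjamini-Hochberg across the 26781 genes tested. A gene was called where its adjusted p was under 0.05 and its change 2-fold or more. Age and sex follow the labels deposited with each array. Chil3, a gene of activated macrophages, was higher on the AGED arrays (log2 change 5.68 in males and 2.53 in females). The study lists Chil3 among the genes lower in AGED mice, and S100a9, a neutrophil gene described with the markers, as well. For both genes the direction given here opposes the study's list, while every sign in the text follows the labels. Whether the labels or the list have the ages the other way round cannot be told from these values.

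The arrays of the female mice lay on one slide and those of the males on the other, with MAT arrays in row 1 and AGED arrays in row 2 of both slides. Age and row, and sex and slide, cannot be told apart. Probes well above background made up 60.5% to 65.9% on MAT male, 52.4% to 61.3% on AGED male, 64.6% to 68.3% on MAT female and 59.9% to 63.2% on AGED female arrays. AGED male replicate 1 stood apart as the dimmest array, its log2 75th percentile being 9.18 where no other AGED male array was under 9.90. The labelled tissue was borne out by its markers, since all 8 urothelial and all 6 smooth muscle genes of the lists were well above background on all 16 arrays. None of 7 genes of the male accessory glands was well above background on more than 2 arrays. The samples were whole tissue, so fewer cells of a type and less RNA per cell cannot be told apart.

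**Figure D1:**
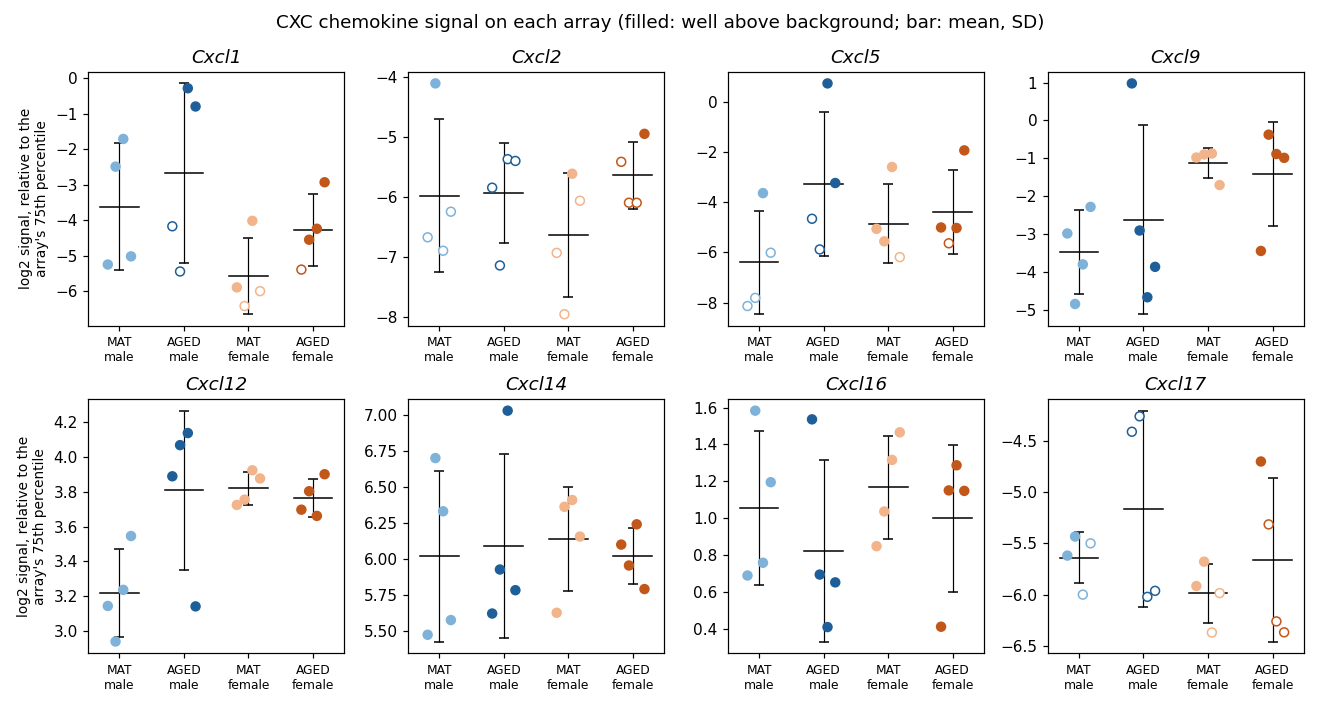
Signal of the 8 CXC chemokines on each of the 16 arrays, as log2 relative to the array's 75th percentile (y axes differ between panels), by group. Points are arrays in the order of their replicate number, filled where the probe was well above background, with the mean as a line and the SD as a bar. The AGED and MAT points overlap in both sexes for every member, and the widest scatter within a group is that of Cxcl5 in AGED males, from -5.88 to 0.73.

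Cxcl1 and Cxcl2 are neighbours on chromosome 5, and Cxcl9 lies farther along it. Of the 8 members 5 had an entry in RefSeq's promoter table (GRCm38.p6). The 250 bases before the start of Cxcl1, Cxcl2 and Cxcl9 are shown because the first pair are the neutrophil chemokines with an entry and Cxcl9 is the interferon-induced member. Capitals mark each match, on either strand, of a form of the NF-kB site made of GGG, any 2 bases and TTTCC.
Cxcl1, chr5:90890995-90891244, plus strand: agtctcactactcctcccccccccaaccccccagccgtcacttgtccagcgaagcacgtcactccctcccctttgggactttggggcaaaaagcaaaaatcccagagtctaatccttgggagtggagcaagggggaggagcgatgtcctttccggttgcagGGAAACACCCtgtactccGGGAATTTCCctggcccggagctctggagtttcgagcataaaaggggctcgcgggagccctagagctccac
Cxcl2, chr5:90903649-90903898, plus strand: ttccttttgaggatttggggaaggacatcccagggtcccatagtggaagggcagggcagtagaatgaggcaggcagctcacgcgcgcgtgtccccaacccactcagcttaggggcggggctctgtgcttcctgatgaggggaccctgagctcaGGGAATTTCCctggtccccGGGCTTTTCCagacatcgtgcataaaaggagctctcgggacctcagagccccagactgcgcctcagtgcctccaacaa
Cxcl9, chr5:92328080-92328329, minus strand: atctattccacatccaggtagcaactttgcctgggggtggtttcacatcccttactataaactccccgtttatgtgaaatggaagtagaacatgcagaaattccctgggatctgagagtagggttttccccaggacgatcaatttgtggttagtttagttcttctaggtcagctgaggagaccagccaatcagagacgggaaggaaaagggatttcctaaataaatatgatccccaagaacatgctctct
These letters occurred 2 times before Cxcl1, at 89 to 80 bases before the start on the minus strand and at 71 to 62 on the plus strand. They occurred 2 times before Cxcl2, both on the plus strand, at 97 to 88 and at 78 to 69 bases. The same letters were present in 1.41% of 32851 promoter windows of this length. They were not in this window of Cxcl9, and neither was TTCNNNGAA, a form of the interferon gamma activated site, which 7.02% of the windows held and which the window of Cxcl14 held at 191 to 183 bases. A match is a run of letters and not a measured binding site. Other forms of either site were not searched for, so a window without a match may still hold one.

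Of the 7 members tested, 0 were called in males, where 0.851% of all genes were called (0.276% higher and 0.575% lower in AGED), and 0 in females, where 0.19% were (0.179% higher and 0.0112% lower). In no member did the 4 AGED arrays separate from the 4 MAT arrays in either sex, while the groups did not overlap for 7.82% of all genes in males and 10.8% in females. At limma's unadjusted p under 0.05 there were 2 of 7 members in males, against 16.2% of all genes, and 0 of 7 in females, against 10.5%. With the methods' t-test, unadjusted and with the same 2-fold limit, 0 members were called in either sex. A change of 2-fold or more was fitted for 1 member in males (Cxcl5) and 1 in females (Cxcl1), against 3.75% and 2.73% of all genes. The log2 change was above 0 in 6 of 7 members in males and 3 of 7 in females, against 50.2% and 49.1% of all genes. The median log2 change over the members was 0.59 in males and -0.05 in females, beside 0.00 and -0.01 over all genes tested. Without AGED male replicate 1 the male median was 0.23, with 5 of 7 above 0, and without AGED female replicate 1 the female median was 0.03, with 5 of 7 above 0. With 7 genes these medians are a description. The difference between the age changes of the sexes passed in 0 of 7 members, where 0.149% of all genes passed, and the smallest unadjusted p among them was 0.0302, of Cxcl12.

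**Figure D2:**
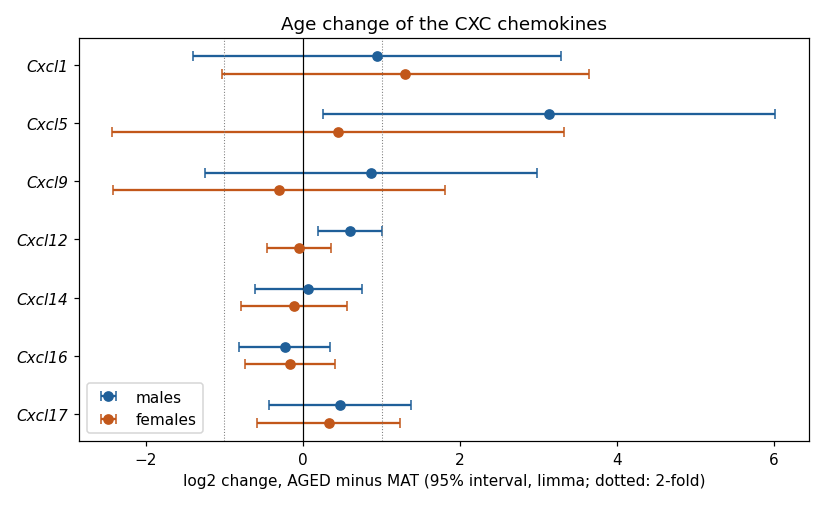
Log2 change between AGED and MAT bladders of the 7 tested CXC chemokines, in males and females, with the 95% interval from limma. Dotted lines mark 2-fold. The intervals of Cxcl12, Cxcl14 and Cxcl16 are narrow and those of Cxcl1, Cxcl5 and Cxcl9 span several log2 units.

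Cxcl1, a neutrophil attractant, was scattered in males. Its log2 signal was -5.25, -2.49, -1.72 and -5.02 on the MAT male arrays and -4.17, -5.45, -0.29 and -0.80 on the AGED male arrays. AGED male replicates 3 and 4 were above every MAT male array, and the other AGED males were within or below the MAT range and not well above background. The log2 change was 0.94 (standard error 1.10, 95% interval -1.40 to 3.28, adjusted p = 0.696 from limma). Without AGED male replicate 3 it was 0.15 and without AGED male replicate 4 it was 0.32. In females Cxcl1 was -5.90, -6.42, -4.02 and -6.00 on MAT and -5.39, -4.55, -4.24 and -2.94 on AGED arrays. The highest female value was that of AGED replicate 4, and the groups overlapped through MAT replicate 3. The log2 change in females was 1.30 (standard error 1.10, 95% interval -1.04 to 3.65, adjusted p = 0.744), with 2 of 4 MAT and 3 of 4 AGED arrays well above background. Both intervals include a 2-fold difference in either direction, so such a difference was not detectable with this number of arrays.

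Cxcl5, an epithelial neutrophil attractant, had the widest range of all members. On the MAT male arrays its log2 signal was -8.13, -7.81, -3.64 and -6.01, and only replicate 3 was well above background. On the AGED male arrays it was -4.66, -5.88, 0.73 and -3.24, and replicates 3 and 4 were well above background. Between the lowest and the highest AGED male array the signal differed at least 66.7-fold, with the lowest, which was not well above background, raised to the floor of its array. The fitted log2 change in males was 3.14, or 8.80-fold (standard error 1.35, 95% interval 0.26 to 6.01, unadjusted p = 0.0346, adjusted p = 0.265 from limma). AGED male replicates 3 and 4 were above every MAT male array, and the other AGED males lay within the MAT range (exact two-sided permutation test, p = 0.114). Part of this change rests on MAT signals that were not well above background. It was 2.08 with a floor on low signals, 1.60 with normexp background correction and 1.81 without AGED male replicate 3. In females Cxcl5 was -5.06, -5.56, -2.60 and -6.19 on MAT and -5.00, -5.63, -5.03 and -1.94 on AGED arrays. A single array in each group stood high, MAT replicate 3 and AGED replicate 4. The female log2 change of 0.45 had a standard error of 1.35 and an adjusted p of 0.954, and it was -0.37 without AGED female replicate 4.

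Cxcl2, the other Cxcr2 ligand of the set, was well above background on 3 of 16 arrays, MAT male replicate 2, MAT female replicate 3 and AGED female replicate 4. Its log2 signal ranged from -6.90 to -4.11 on MAT male, -7.14 to -5.37 on AGED male, -7.96 to -5.61 on MAT female and -6.10 to -4.95 on AGED female arrays. It was left out of the test by the filter on dim probes. With no filter its log2 change was 0.04 in males (adjusted p = 0.980 from limma) and 1.00 in females (adjusted p = 0.530).

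Cxcl9 differed in its spread between the groups. Its log2 signal was -2.99, -4.85, -3.81 and -2.29 on the MAT male arrays and 0.98, -2.91, -4.68 and -3.87 on the AGED male arrays. AGED male replicate 1 alone was above the MAT males, and the other AGED males lay within their range. The log2 change in males was 0.86 (standard error 0.99, 95% interval -1.25 to 2.98, adjusted p = 0.692 from limma), and it was -0.34 without AGED male replicate 1. In females Cxcl9 was -0.98, -0.90, -0.87 and -1.71 on MAT and -3.45, -0.38, -0.89 and -0.99 on AGED arrays. AGED female replicate 1 was the lowest of the 8 female arrays, and the other AGED females were close to the MAT females. The log2 change in females was -0.31 (standard error 0.99, 95% interval -2.42 to 1.80, adjusted p = 0.957), and it was 0.36 without AGED female replicate 1. The other probe of Cxcl9 gave log2 changes of 0.91 in males and -0.03 in females, with AGED male replicate 1 again the highest male array (0.40) and AGED female replicate 1 the lowest female array (-4.40). All 4 MAT female arrays lay above all 4 MAT male arrays in Cxcl9, with means of -1.12 ± 0.40 and -3.48 ± 1.10 (SD, n = 4). The same held for Cxcl12, with MAT females at 3.72 to 3.92 and MAT males at 2.94 to 3.55. These sex differences were not tested, because they cannot be told apart from the slide. The share of all genes that separate MAT females from MAT males was not computed, so whether these members stand out in this is not known.

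Cxcl12, the stromal chemokine, had the smallest p of the members. Its log2 signal was 3.14, 2.94, 3.24 and 3.55 on the MAT male arrays and 3.89, 4.07, 4.14 and 3.14 on the AGED male arrays. AGED male replicates 1 to 3 were above every MAT male array, and AGED male replicate 4 was level with MAT male replicate 1. The SD of Cxcl12 was 0.25 in MAT and 0.46 in AGED males, against 0.10 in MAT and 0.11 in AGED females, and the fit pools them. The log2 change in males was 0.59, or 1.51-fold (standard error 0.19, 95% interval 0.19 to 1.00, unadjusted p = 0.00733, adjusted p = 0.139 from limma, and p = 0.114 from the exact two-sided permutation test). With AGED male replicate 4 left out the log2 change was 0.82, which is under the 2-fold limit, and its adjusted p 0.0115. In females Cxcl12 was 3.72, 3.76, 3.92 and 3.88 on MAT and 3.70, 3.80, 3.66 and 3.90 on AGED arrays. The female arrays lay within 1.20-fold of each other, and the log2 change was -0.05 (standard error 0.19, 95% interval -0.46 to 0.35, adjusted p = 0.962). This interval excludes a 2-fold difference. The second Cxcl12 probe, which the files list under another transcript of the gene, gave log2 changes of 0.21 in males (standard error 0.22) and 0.15 in females (standard error 0.22). The age change of the tested probe differed between the sexes by 0.65 (95% interval 0.07 to 1.23, adjusted p = 0.445 from limma).

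Cxcl14, Cxcl16 and Cxcl17 showed no difference between ages beyond the spread of the arrays. Cxcl14, a chemokine of resting epithelium and stroma, was well above background on all 16 arrays, from 5.48 to 7.03 on male and 5.63 to 6.41 on female arrays. Its log2 change was 0.07 in males (95% interval -0.61 to 0.75) and -0.12 in females (-0.79 to 0.56), and both intervals exclude a 2-fold difference. Cxcl16 was also well above background on all arrays, from 0.41 to 1.58 in males and 0.41 to 1.47 in females. Its log2 change was -0.23 in males (95% interval -0.81 to 0.34) and -0.17 in females (-0.74 to 0.41), again within 2-fold. Cxcl17 was near background, and its probe was well above it on 2 MAT male, 0 AGED male, 2 MAT female and 1 AGED female array. Its mean log2 signal was -5.64 ± 0.25 on MAT male, -5.16 ± 0.96 on AGED male, -5.99 ± 0.29 on MAT female and -5.66 ± 0.80 on AGED female arrays (SD, n = 4). No fold is given for Cxcl17 in males, where no AGED array was well above background, and the adjusted p was 0.603 in males and 0.857 in females.

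The spread between the arrays of a group set the members apart from each other. The pooled SD of the log2 signal within groups was 2.11 for Cxcl5, 1.71 for Cxcl1 and 1.54 for Cxcl9, against a median of 0.30 over all genes tested. The SD of Cxcl9 ranged from 0.40 in MAT females to 2.505 in AGED males, and its pooled SD was 1.01 without AGED male replicate 1. A smaller SD was found in 99.9%, 99.6% and 99.3% of all genes for these members. Cxcl5 and Cxcl1 were also near background on part of the arrays, where the log2 signal is least precise. Cxcl9 was well above background on all 16 arrays. The pooled SD was 0.27 for Cxcl12, 0.40 for Cxcl16, 0.48 for Cxcl14 and 0.65 for Cxcl17.

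The single arrays with extreme chemokine values, described after their values were seen, were also extreme in some of the lists and not in others. AGED male replicate 1, the highest male array in Cxcl9, was the highest of the 8 male arrays in 11 of 16 interferon gamma signalling genes, 9 of 10 T cell markers and 7 of 8 macrophage markers. The same array was the highest male array in 4 of 6 smooth muscle genes and the lowest in 3 of 8 urothelial genes. There Ifng, which encodes interferon gamma, was at 0.43 against -5.42 to -2.97 on the other male arrays. Cxcr3, the receptor of Cxcl9 on T cells, was at 2.70 against -0.54 to 0.79, and Cxcr6, the receptor of Cxcl16, at 3.38 against 0.39 to 1.38. Cd8a, of cytotoxic T cells, was at -0.98 against -5.29 to -3.22. AGED female replicate 1, the lowest female array in Cxcl9, was the lowest of the 8 female arrays in 8 of 10 T cell and 5 of 5 B cell markers, and Ifng was at -5.07 there against -3.86 to -2.22. Of the 16 interferon gamma signalling genes, 3 were at their lowest there, against 5 on MAT female replicate 2 and 4 on MAT female replicate 4. On the T cell markers, the mean log2 signal ranged from -1.25 to -0.66 on MAT male, -1.38 to 1.39 on AGED male, -0.26 to 0.29 on MAT female and -1.01 to 0.36 on AGED female arrays. AGED male replicate 1 was also the dimmest array. The part of cell content and of array brightness in these values was not tested.

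AGED male replicate 3 was the highest male array in both Cxcl1 and Cxcl5, and AGED female replicate 4 was the highest female array in both. AGED male replicate 3 was also the highest male array in the tested probe of Cxcl12 (4.14) and in Cxcl14 (7.03). On the second Cxcl12 probe it was the lowest AGED male array (2.70), under MAT male replicates 1, 3 and 4. By the tested probes it was thus the highest in 4 of 7 members and the lowest in 2. On AGED male replicate 3, 4 of 7 neutrophil markers were at their highest among the male arrays, and 9 of 16 interferon gamma signalling genes at their lowest. S100a9, a neutrophil calcium-binding protein, was at 2.41 there, close to AGED male replicate 1 at 2.19. Of 13 tested genes of interleukin 17, interleukin 1, TNF and NF-kB signalling, 0 had their highest male value on AGED male replicate 3. Among the female arrays 5 of them were highest on AGED female replicate 1 and 6 on AGED female replicate 4. On AGED female replicate 4, Tnf and Il1b, which induce neutrophil chemokines, had their highest female values (-2.63 and -0.64), as did 7 of 8 macrophage markers. The same array was also the highest of the female arrays in 5 of 6 smooth muscle, 5 of 6 fibroblast and 9 of 16 interferon gamma signalling genes, and in 2 of 7 neutrophil markers, against 3 of 7 on AGED female replicate 1. The neutrophil markers did not follow Cxcl1 and Cxcl5 on every array. S100a8 and S100a9 were called higher in AGED males (log2 changes of 2.43 and 3.08 with adjusted p-values of 0.0211 and 0.0125, limma), and AGED male replicates 1 and 2 took part in this while their Cxcl1 and Cxcl5 were not well above background. Both calls were lost with the replicate block (adjusted p of 0.0664 for S100a8 and 0.0696 for S100a9), with males alone (0.157 and 0.144) and with the methods' t-test after adjustment (0.329 and 0.299). Without MAT male replicate 3 or 4 the adjusted p of S100a8 was 0.0741 and 0.0504. In females the log2 changes of S100a8 and S100a9 were 1.12 and 1.62 (adjusted p of 0.436 and 0.323, limma), and every AGED array was above every MAT array in both. The groups did not overlap for 4 of 7 neutrophil markers in each sex, against 7.82% of all genes in males and 10.8% in females. One of these in females, Elane, was lower in AGED (log2 change -0.88). The mean log2 signal of the 7 tested neutrophil markers ranged from -1.42 to -0.84 on MAT male, -0.61 to 0.26 on AGED male, -1.44 to -1.0003 on MAT female and -0.88 to -0.43 on AGED female arrays. Of the 10 neutrophil markers Ngp and Mmp8, granule genes of maturing neutrophils, were well above background on 0 arrays. The part of neutrophil content in the chemokine values was not tested.

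**Figure D3:**
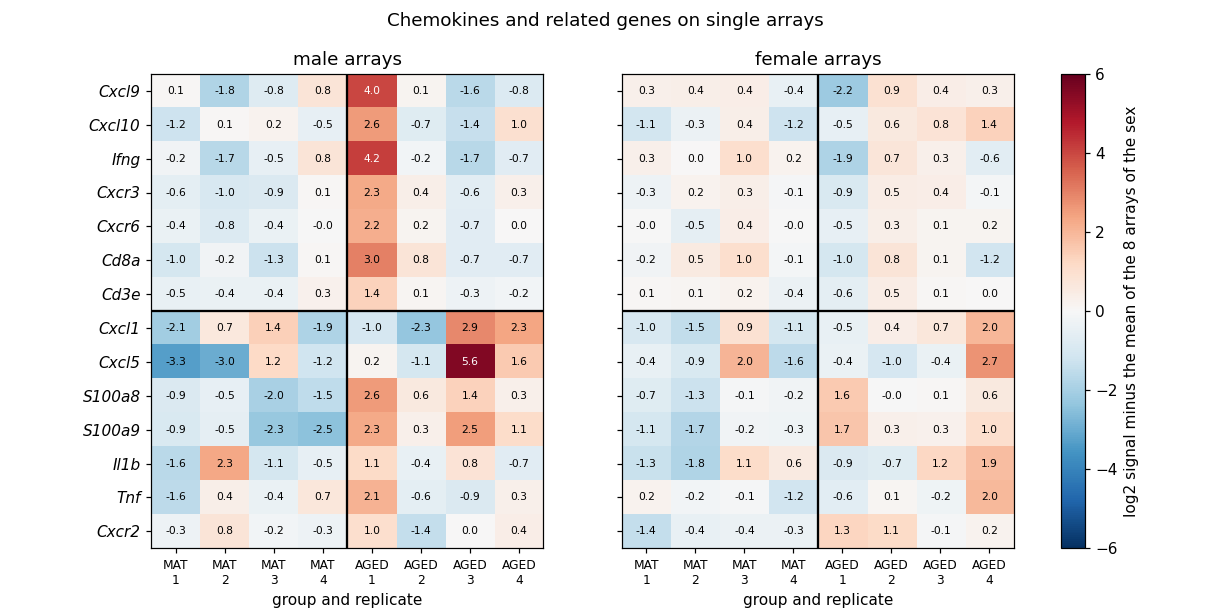
Log2 signal of chemokines, receptors, cytokines and cell markers on each array, less the mean of the 8 arrays of the same sex, with male arrays on the left and female arrays on the right. Rows above the black line are Cxcl9, genes of interferon gamma and T cells, and rows under it are Cxcl1, Cxcl5 and genes of neutrophils and inflammation. AGED male 1 is red in all rows of the upper block, AGED female 1 is blue there, and Cxcl1 and Cxcl5 peak on AGED male 3 and AGED female 4.

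The genes whose pattern over the 16 arrays was most like a member were sought by the mean absolute difference of their log2 signals, after the mean of each gene was subtracted. For Cxcl12 they were Cdc42se2, Med24 and Pdgfra, with differences of 0.16, 0.17 and 0.18. Pdgfra is a growth factor receptor of fibroblasts, and its log2 change in males was 0.09. For Cxcl5 they were Cemip, Atoh8 and Olfr1221, at 1.16, 1.22 and 1.23, a wider gap than for Cxcl12. For Cxcl17 they were Trim72, Vax2 and Kremen2, at 0.30, 0.31 and 0.33.

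The other CXC ligands were called 1 time of 5 tested in males and 0 of 5 in females. The one called was Cxcl13, the B cell attractant of lymphoid tissue. Its log2 signal was -0.53, -1.12, -0.46 and -0.22 on MAT male and 5.53, 2.85, 4.45 and 1.999 on AGED male arrays, and every AGED male was above every MAT male. In AGED males Cxcl13 was higher by 4.29 on the log2 scale, or 19.6-fold, with a standard error of 0.54 and an adjusted p of 0.00125 (limma). In females every AGED array, at 1.09 to 1.77, was also above every MAT array, at 0.52 to 0.96. Female groups did not overlap for 10.8% of all genes. The female change of 0.79 had an adjusted p of 0.660 (limma), with the same pooled standard error of 0.54. The SD was 0.38 in MAT males and 1.59 in AGED males, against 0.21 in MAT females and 0.31 in AGED females. The difference between the sexes did not pass, with an adjusted p of 0.0923. Cxcl10, an interferon-induced ligand of Cxcr3 like Cxcl9, had log2 changes of 0.71 in males and 1.15 in females, with adjusted p-values of 0.642 and 0.609, and the male value was -0.02 without AGED male replicate 1. The log2 changes of Cxcl15, the platelet factor gene Pf4 and the platelet gene Ppbp in males were 1.23, -0.09 and -0.54, with adjusted p-values from 0.360 to 0.880. In females they were -0.55, 0.60 and 0.25, with adjusted p-values from 0.350 to 0.928. Pf4 had 3 AGED male arrays, since an outlier flag removed the value of replicate 4. Cxcl3 was well above background on 0 arrays, and no probe was matched to Cxcl11. The median log2 change of the 5 ligands was 0.71 in males, or 0.08 without AGED male replicate 1, and 0.60 in females.

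None of 7 tested receptors was called in either sex. In males 6 of 7 log2 changes were above 0, with a median of 0.68, and in females 3 of 7, with a median of -0.06. Without AGED male replicate 1, the highest male array in 4 of 7 receptors, the male median was 0.49, Cxcr3 was at 0.61 and Cxcr6 at 0.24. Without AGED female replicate 1 the female median was 0.20, with 4 of 7 above 0. The log2 changes of Cxcr3 were 1.17 in males, with a standard error of 0.48, and -0.09 in females, with adjusted p-values of 0.239 and 0.976. Those of Cxcr4, the receptor of Cxcl12, were 0.68 and -0.45, with adjusted p-values of 0.268 and 0.647, and those of Cxcr6 were 0.83 and 0.09, with adjusted p-values of 0.371 and 0.975. Cxcr2, the receptor of Cxcl1, Cxcl2 and Cxcl5, was well above background on 4 of 16 arrays. In females its 4 AGED arrays, 2 of them well above background, lay above its 4 MAT arrays (log2 change 1.29, standard error 0.47, adjusted p = 0.356). Cxcr5, the receptor of Cxcl13, had log2 changes of 0.75 and -0.84 in males and females, with adjusted p-values of 0.708 and 0.817. The scavenger receptors Ackr1 and Ackr3 had log2 changes of 0.55 and 0.07 in males and of 0.22 and -0.06 in females. Cxcr1 was well above background on 0 arrays.

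Among 6 proteases and partners of CXC ligands, 1 was called lower in males and 0 in females. Dpp4 encodes a surface peptidase that trims the amino terminus of Cxcl12, Cxcl9 and Cxcl10. Its log2 signal was -1.36, -0.73, -1.28 and -1.37 on MAT male and -2.31, -2.95, -3.98 and -3.49 on AGED male arrays, and every AGED male was below every MAT male. The mean of Dpp4 fell from -1.18 to -3.18 in AGED males, a decrease of 4.00-fold with an adjusted p of 0.00400 (limma). The female log2 change was 0.03 with an adjusted p of 0.985, and the difference between the sexes did not pass, with an adjusted p of 0.0767. Leaving out any 1 of the 16 arrays kept the male calls of Cxcl13 and Dpp4. With males fitted alone, on their slide, the adjusted p was 0.0967 for Cxcl13 and 0.116 for Dpp4, although the values are the same. Adam10 and Adam17, the sheddases of Cxcl16, had log2 changes of 0.27 and -0.60 in males, with adjusted p-values of 0.449 and 0.296. The median of the 6 genes was -0.27 in males and -0.00 in females.

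**Figure D4:**
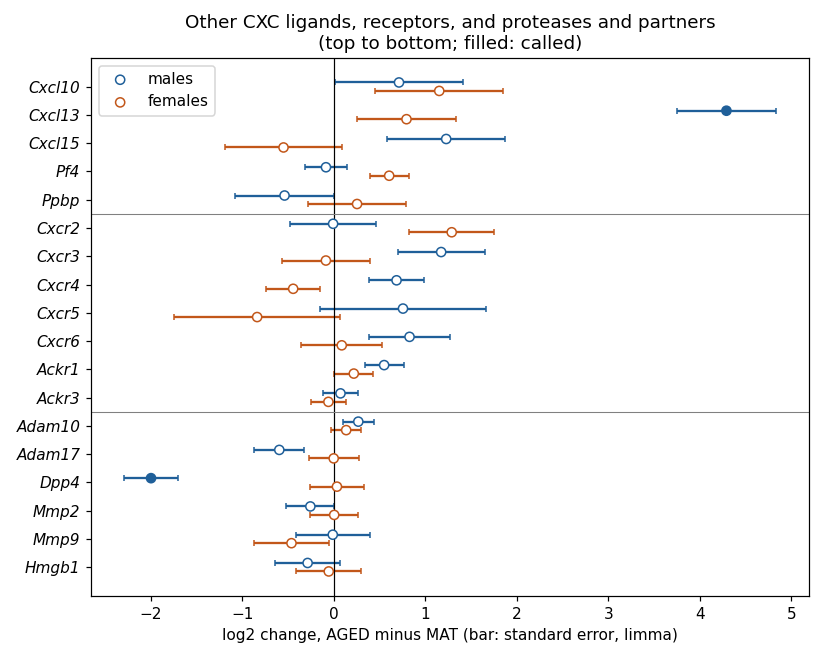
Log2 change between AGED and MAT bladders of the other CXC ligands, the receptors, and the proteases and partners (top to bottom, separated by lines), in males and females, with the standard error from limma. Filled points were called. Cxcl13 at 4.29 and Dpp4 at -1.999, both in males, are the filled points.

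The signalling genes upstream of these chemokines were not called either. Of 13 tested genes of interleukin 17, interleukin 1, TNF and NF-kB signalling, which drives Cxcl1, Cxcl2 and Cxcl5, 0 were called in either sex. Their median log2 change was -0.07 in males, with 6 of 13 above 0, and 0.21 in females, with 12 of 13 above 0. Il17a and Il17f, the cytokines of Th17 cells, were well above background on 0 arrays. Of 16 interferon gamma signalling genes 0 were called in either sex, with medians of -0.01 in males and 0.17 in females, and the groups did not overlap for 2 and 4 of them, against 7.82% and 10.8% of all genes. Without AGED male replicate 1 the male median was -0.34. Ifng had log2 changes of 0.81 in males and -0.75 in females, with adjusted p-values of 0.707 and 0.857, and the male value was -0.44 without AGED male replicate 1.

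Among the marker lists of cell types, S100a8 and S100a9 were the genes called, both in males, where neither call held with the replicate block, with males alone or with the methods' t-test after adjustment, and no list had a called gene in females. All 10 T cell markers had log2 changes above 0 in males (median 0.76) and below 0 in females (median -0.21), and 0 were called in either sex. Without AGED male replicate 1 the male median was 0.13, with 8 of 10 above 0, and without AGED female replicate 1 the female median was 0.09, with 6 of 10 above 0. The markers named for each list are those with the highest mean signal, a rule of choice and not a comparison of levels. For T cells they were Thy1 and Lck, a surface protein and a kinase, with log2 changes of 0.04 and 1.10 in males and -0.30 and -0.18 in females. Without AGED male replicate 1 the male change of Lck fell to 0.44, while that of Thy1 did not fall and was 0.14. All 5 B cell markers were also above 0 in males (median 0.44) and below 0 in females (median -0.75, or -0.01 without AGED female replicate 1), and Jchain of plasma cells and Cd79b were the genes chosen. Of the macrophage markers 8 were tested, with medians of 0.37 in males, or 0.06 without AGED male replicate 1, and 0.61 in females. In females 7 of 8 log2 changes were above 0. The female groups did not overlap for 3 of 8 (C1qa, C1qb and Fcgr1), against 10.8% of all genes, and the male groups for 0, against 7.82%. The macrophage genes chosen were the receptor gene Csf1r and the complement gene C1qc. For neutrophils they were Csf3r, the receptor of the granulocyte growth factor, and the elastase gene Elane, with log2 changes of -0.04 and -0.26 in males. The medians of the tissue's own cells were -0.12 and 0.08 for urothelium (Upk1a, Upk3a), 0.05 and 0.07 for smooth muscle (Cnn1, Tagln), -0.37 and -0.04 for fibroblasts (Dcn, Col1a2) and -0.06 and -0.09 for endothelium (Kdr, Cdh5), in males and females.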

How the data were processed

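RNA of 16 bladders was labelled with Cy3 and hybridized to 1-colour Agilent arrays of 62976 spots. The intensity values that the authors deposited for each spot came from Feature Extraction (10.7.3.1 per the file headers, 9.1 in the submitters' processing notes), background-subtracted and not normalized between arrays. A deposited matrix of log2 values, centred per probe by the authors, matched the scaled scanner values within a median difference of 0.0130 per array, with column medians from -0.12 to 0.29. Processed signals were put on a log2 scale, spots of the same probe averaged and each array's 75th percentile taken off. Controls were dropped, outlier flags removed 399 probe values, and 0 spots of probes were saturated. Probes were named through RefSeq accessions (GRCm38.p6, names and promoter sequences alone). Of 36974 kept probes, the one with the highest mean stood for its gene. Genes were tested with limma 3.58.1 in R 4.3.3 (12 residual degrees of freedom), with a test of the difference between the sexes. Exact permutation tests were two-sided, and their smallest p with 4 arrays against 4 is 0.0286. The procedure was tested on simulated data. Named genes are the members, the other CXC ligands and receptors, list genes that were called, the 2 markers of each cell type with the highest mean signal and the 3 genes most like each of 3 members. Other genes of the lists and the arrays described singly were chosen after their values were seen. The members and lists were chosen with earlier results of these data known. The lists held other CXC ligands, CXC receptors, proteases and partners, NF-kB and interferon gamma signalling, and markers of neutrophils, macrophages, T cells, B cells, urothelium, smooth muscle, fibroblasts, endothelium and male accessory glands. Means without AGED replicate 1 of a sex were added after the data were seen. The alternatives are listed in the closing section. The number of arrays limits the precision.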

Additional observations from a re-analysis of the deposited data

Results flagged for a closer look

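In 10 of 91 groups of 4 arrays, over the members, the other CXC ligands, the receptors and Dpp4, 1 array lay apart from the others by a share of the group's range above Dixon's 95% critical value. About 1 group in 20 is marked so by chance, and the share here was 11%, over genes that are not independent. Among the members, AGED female replicate 4 was high in Cxcl5 (a gap of 0.830 of the range, -1.94 against -5.00), AGED female replicate 1 was low in Cxcl16 (0.841, 0.41 against 1.15) and MAT female replicate 4 was low in Cxcl9 (0.872, -1.71 against -0.98). The second Cxcl9 probe marked AGED female replicate 1 (0.831, -4.40 against -2.13) and MAT female replicate 4 (0.986, -3.08 against -2.27), both low. Among the other genes, MAT male replicate 2 was high in Cxcr2 (0.853) and Dpp4 (0.867), MAT female replicate 3 was high in Ackr3 (0.866), MAT female replicate 4 was low in Pf4 (0.900) and MAT female replicate 1 was low in Cxcr2 (0.912). AGED male replicate 1 was not marked in Cxcl9, since the other AGED male values were also wide apart.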

How the results depend on the processing

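The number of members called was 0 in males, in females and for the difference between the sexes under every setting tried. These were quantile and median scaling, the authors' table of log2 values, no filter on dim probes and a stricter one, a floor for low signals, the mean of a gene's probes, each probe on its own, normexp background correction, the methods' t-test (unadjusted and adjusted), each sex alone, array weights, the replicate block and leaving out each array. Over these settings the number of all genes called ran from 0 to 756 in males and from 0 to 394 in females. For the members' own changes in each sex, 190 values kept their sign and their side of the threshold under the settings other than a left-out array and 2 changed sign. Cxcl16 in males was 0.024 under normexp and Cxcl12 in females was 0.048 with the mean of its probes. With the stricter filter Cxcl5 and Cxcl17 could not be tested. Dpp4 in females was -0.027 under normexp. With 1 array left out, 217 values kept sign and side and 7 changed sign. The ranges with a change of sign were -0.24 to 0.30 for Cxcl14 and -0.34 to 1.55 for Cxcl9 in males, and -0.27 to 0.029 for Cxcl16, -0.66 to 0.36 for Cxcl9, -0.37 to 1.20 for Cxcl5 and -0.074 to 0.23 for Dpp4 in females.

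Same-numbered AGED and MAT arrays did not deviate together, with correlations from -0.15 to 0.07, and 2 of 8 AGED arrays correlated best with their own number. These values show no pairing of the mice by number but, with so few arrays, cannot exclude it. The replicate number was also the column of the array on its slide. With the replicate block 0 members were called in either sex, the adjusted p of Cxcl12 in males was 0.297 and that of S100a8 and S100a9 in males was 0.0664 and 0.0696. The settings of Cxcl13, Dpp4, S100a8 and S100a9 were chosen after the data were seen. Their male calls were also lost with each sex alone and with the methods' t-test after adjustment, where the adjusted p was 0.255 to 0.329. Signals near background limit Cxcl1, Cxcl2, Cxcl5 and Cxcl17.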
